A study of Mus musculus with 14 samples.

Results

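The response of mouse hepatocytes to acute loss of Srsf1 was set beside the response to chronic loss, gene by gene, in 10 of the 14 RNA-seq libraries of a study of hepatocyte Srsf1 knockouts. The quantity of interest was a difference of differences: the change from GFP control to acute knockout minus the change from 1 month control to 1 month knockout. Values were gene sums of TPM, a length-corrected transcript abundance that adds up to the same total in every library, on the log2(TPM + 1) scale. A gene was tested where its level averaged 1 TPM or more across the 10 libraries, which left 10177 of 54446 genes.

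Hepatocytes were purified from C57BL/6 mice. In the chronic model, 2 libraries came from 1 month old hepatocyte knockouts (HKO) with floxed Srsf1 and an albumin-Cre transgene (srsf1f/f;albcre+/-), and 2 from 1 month old albumin-Cre controls (albcre+/-), neither given any vector. Albumin-Cre is active in hepatocytes and their precursors from before birth. In the acute model, floxed mice (srsf1f/f) received an AAV8 vector at 8 weeks of age and were sampled at 10 weeks, 2 weeks later. The vector carried iCre in 3 libraries (acute knockout) and GFP in 3 (GFP control), in both cases behind the hepatocyte promoter TBG. The remaining 4 libraries, 2 HKO (srsf1f/f;albcre+/-) and 2 albumin-Cre controls (albcre+/-) at postnatal day 10 (P10), were used as samples outside the contrast. The acute and 1 month comparisons share no library. No label states whether replicates came from different animals, so p-values measure the spread between these samples. Model, age, mouse line, viral treatment and the format of the library index strings all differ between the comparisons and cannot be told apart. At 1 month the knockouts are floxed and the controls are described by albumin-Cre alone, so line and knockout cannot be told apart there, and iCre was given to acute knockouts alone.

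SRSF1 is a member of the SR protein family, RNA-binding splicing factors that bind exonic enhancers and help recruit the spliceosome, and it also acts in mRNA export, translation and nonsense-mediated decay. Hepatocytes are long-lived cells that rarely divide in the adult liver, and they can re-enter the cell cycle after injury. Deletion before birth leaves growing tissue without the factor, whereas deletion by a viral vector in the adult removes it from mature hepatocytes over a short time.

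Srsf1 (chr11:88047373-88053755, plus strand, GRCm38) had its lowest values in the knockouts, and knockout and control libraries overlapped in neither model. Its level was 23.2 and 20.01 TPM in the 1 month controls and 7.74 and 9.17 TPM in the 1 month knockouts. The acute model had 16.5, 29.7 and 32.3 TPM in the GFP controls and 3.69, 5.34 and 4.16 TPM in the acute knockouts. TPM are shares of a total, and the median log2 change over all tested genes was -0.35 in the acute comparison, -0.04 at 1 month and -0.33 in the difference. Log2 changes are therefore given relative to that median gene, while every adjusted p is from the deposited values (limma, Benjamini-Hochberg over all tested genes, threshold 0.05). On this relative scale a gene near 0 TPM in both acute groups shows an acute change of about 0.35 with no change in level. Srsf1 fell by 1.94 in the acute knockout (limma adjusted p = 3.04e-06) and by 1.22 at 1 month (limma adjusted p = 0.0192). The 1 month call was lost without 1 month control 1, 1 month knockout 1 or 1 month knockout 2 (limma adjusted p up to 0.146), without the mitochondrially encoded genes (limma adjusted p = 0.0757) and with no filter on level (limma adjusted p = 0.0823). The difference between the effects was -0.70 (SE 0.39, limma adjusted p = 0.1499). In bulk samples, fewer cells of a type and less RNA per cell cannot be told apart. Of 12 tested SR proteins, 7 fell and 1 rose acutely, against 29.4% and 5.28% of all tested genes, and Srsf1 was the single call at 1 month, where 1.28% of all tested genes fell. The acute count is 2 lower and 2 higher when libraries are rescaled by the median of gene ratios (median-ratio rescaling), and 0 of the 12 passed in the difference on the deposited scale.

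Libraries of a group correlated at 0.973 to 0.984 across genes. In the 10 libraries Xist was at most 0.0147 TPM and the Y-linked genes summed to between 24.9 and 68.0 TPM. The summed level of 10 hepatocyte markers ranged from 35500 to 90160 TPM, while the summed T and NK cell and neutrophil lists stayed at or below 1.37 TPM. Sequencing depth cannot be read from TPM and is unknown here.

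More genes passed the test in the acute comparison than at 1 month. In the acute knockout 537 genes rose (5.28% of those tested) and 2988 fell (29.4%), and at 1 month 291 rose (2.86%) and 130 fell (1.28%). After median-ratio rescaling the acute counts were 2065 higher (20.3%) and 2014 lower (19.8%) and the 1 month counts 527 (5.18%) and 331 (3.25%), so the excess of lower acute calls rests on the deposited scale. The acute total of 3525 was 2144 without GFP control 3 and 2132 without acute knockout 3. The groups differ in size, 3 against 3 and 2 against 2, and a count of calls does not compare the sizes of the effects. The difference itself passed for 409 genes (4.02%). The acute effect was the higher in 85 of them (0.835%) and the lower in 324 (3.18%). The split was 566 (5.56%) to 544 (5.35%) after median-ratio rescaling, 10.9% of tested genes in all, and 76 and 262 genes respectively passed on both scales.

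Both counts of the difference moved with single libraries. The 324 genes became 635 without 1 month knockout 1 and 110 without 1 month knockout 2. The 85 genes became 53 without 1 month knockout 1, 56 without GFP control 1, 137 without GFP control 2 and 169 without acute knockout 3. Among the 85, 57 had passed in the acute comparison alone (higher), 16 at 1 month alone (lower) and 5 in opposite directions. Among the 324, 194 had passed in the acute comparison alone (lower), 84 at 1 month alone (higher) and 25 in opposite directions. Most of the rest had passed in the same direction in both comparisons with unequal size.

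Of the 291 genes that rose at 1 month, 110 (37.8%) also rose acutely, set against the 5.28% of all tested genes. These 110 are 20.5% of the 537 acutely higher genes. Of the 130 that fell at 1 month, 67 (51.5%) also fell acutely, set against 29.4% of all tested genes, and they are 2.24% of the acutely lower genes. The 110 shared higher and 67 shared lower genes are 1.08% and 0.658% of those tested. They number 290 (2.85%) and 152 (1.49%) after median-ratio rescaling, and 96 and 34 passed on both scales. The shared lower count was 19 without 1 month knockout 1 and 120 without acute knockout 2. Across the 10177 genes the acute and 1 month changes had a Pearson r of 0.418 and a Spearman rho of 0.421, given as a description because genes are not independent replicates.

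**Figure D1:**
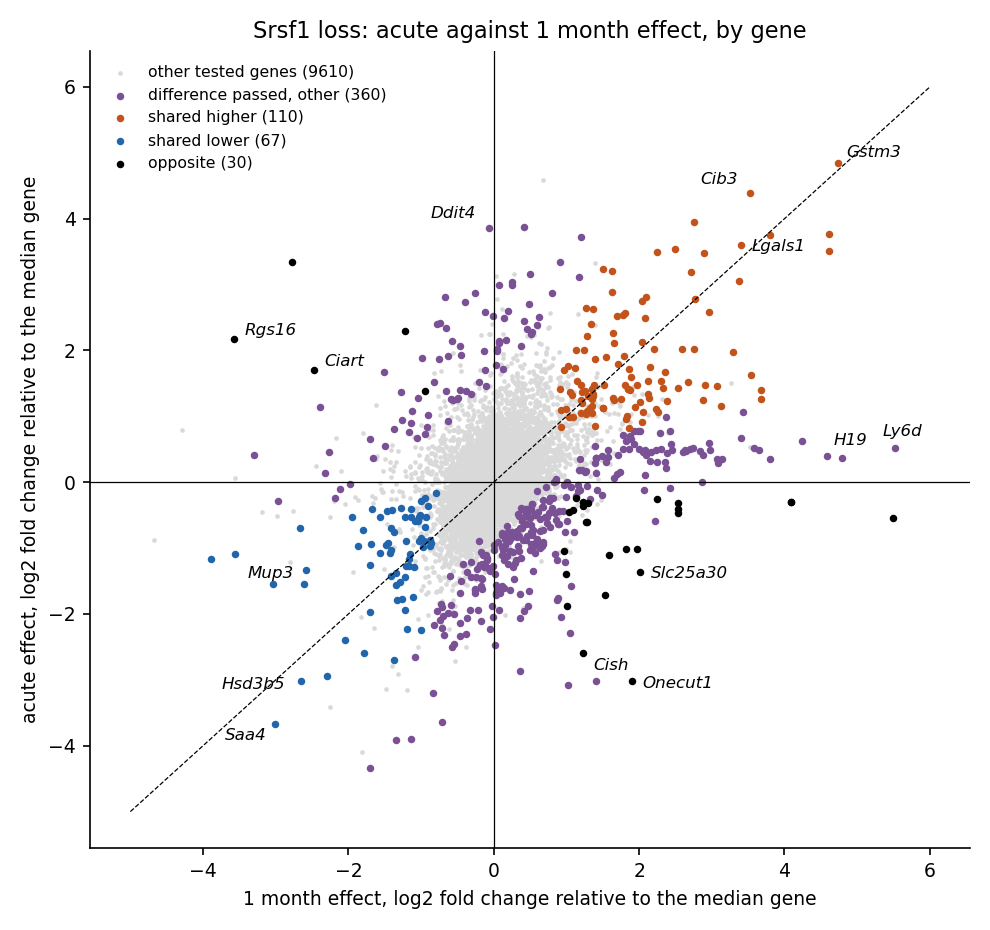
Relative log2 change of each tested gene in the acute knockout plotted against its change at 1 month, with shared genes, opposite genes and other genes with a passing difference marked and a dashed line where the changes are equal. Gstm3 lies far out on the diagonal at 4.85 and 4.73, while Rgs16 (2.17 and -3.57) and Onecut1 (-3.02 and 1.90) lie on opposite sides of it.

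The shared rise was led by glutathione S-transferases, enzymes that couple glutathione to electrophiles and drugs. Gstm3 (chr3:107963696-107969283, minus strand) was at 5.29 and 8.81 TPM in the 1 month controls and 170.0 and 239.5 TPM in the 1 month knockouts. In the acute model Gstm3 was at 29.8, 25.5 and 28.8 TPM in the GFP controls and 802, 481 and 722 TPM in the acute knockouts. The groups did not overlap in either model, and the relative log2 changes were 4.85 acutely (limma adjusted p = 1.37e-09) and 4.73 at 1 month (limma adjusted p = 1.17e-08). Their difference was 0.13, with a 95% confidence interval of -0.72 to 0.99.

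Of 20 tested genes with a glutathione S-transferase symbol, 7 rose and 5 fell acutely, against 5.28% and 29.4% of all tested genes. In both models 5 rose, against 1.08%. Among these 5, Gsta1 rose by 3.51 acutely and 4.61 at 1 month, Gstm2 by 3.18 and 2.72, Gsta2 by 2.82 and 2.09, and Gstp3 by 3.49 and 2.24. For Gstp3 the larger acute change passed after median-ratio rescaling (limma adjusted p = 0.0146) and missed the threshold on the deposited scale (limma adjusted p = 0.241). Near-identical paralogs in this family share reads, so the split of reads between members is uncertain. Over the 27 genes of an NRF2 target and glutathione list, 23 were tested: 6 rose and 1 fell acutely, 9 rose at 1 month and 4 rose in both. The shares of all tested genes were 5.28%, 29.4%, 2.86% and 1.08% in that order. The list's median relative change was 0.46 acutely and 0.69 at 1 month, where the median of all tested genes is 0 by construction. The 1 month count was 6 without 1 month control 1 or without 1 month knockout 2.

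The difference between the models passed for 3 of the 23 tested members of that list, all with the lower acute effect, against 3.18% of all tested genes. Cbr3, a carbonyl reductase, was at most 0.0437 TPM in the 1 month controls and 4.40 and 6.99 TPM in the 1 month knockouts, and in all 6 acute-model libraries it stayed at or below 0.177 TPM. Its difference was -2.18 (limma adjusted p = 1.66e-05). Gstm6 fell in the acute knockout, from 46.1, 50.8 and 60.1 to 15.3, 21.7 and 14.3 TPM, and was at 18.5 and 20.6 against 17.5 and 31.05 TPM at 1 month, a difference of -1.49 (limma adjusted p = 0.00960). Gsta4 had a difference of -1.29 (limma adjusted p = 0.0248), with a rise of 1.19 at 1 month.

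Lgals1, which encodes the secreted lectin galectin-1, was at 1.52 and 1.85 TPM in the 1 month controls and 20.2 and 34.9 TPM in the knockouts, and at 1.36, 0.785 and 1.65 TPM against 26.0, 16.7 and 18.96 TPM in the acute model. Its changes of 3.60 acutely and 3.41 at 1 month differed by 0.21 (95% confidence interval -0.59 to 1.01). Ifi27l2b, of an interferon-inducible family, rose by 2.79 and 2.77. Cib3, a calcium- and integrin-binding protein, rose by 4.40 and 3.53, but it was also 4.09 to 8.21 TPM in the floxed GFP controls against 0.625 and 0.772 TPM in the 1 month albumin-Cre controls.

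Several of the leading shared lower genes encode products typical of hepatocytes. Saa4, a constitutive serum amyloid A carried on lipoproteins, was at 336 and 133 TPM in the 1 month controls, 19.04 and 31.6 TPM in the 1 month knockouts, 265.0, 524 and 243.5 TPM in the GFP controls and 12.3, 60.3 and 8.86 TPM in the acute knockouts. It fell by 3.67 acutely and 3.01 at 1 month. Slco1a1, an organic anion uptake transporter, was at 82.8 and 56.2 TPM against 12.2 and 13.3 TPM at 1 month and at 167, 171 and 225 TPM against 16.5, 36.3 and 9.51 TPM in the acute model, and it fell by 2.95 and 2.29 (limma adjusted p = 1.59e-06 and 0.00115). The groups of both genes were separate in both models.

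Hsd3b5, a hydroxysteroid dehydrogenase typical of male mouse liver, fell by 3.02 acutely and 2.66 at 1 month. Serpina1e, of the alpha-1-antitrypsin family, fell by 2.39 and 2.05, and the transporter Slco1a4 by 2.60 and 1.78. Fmo2, a flavin monooxygenase, fell by 1.97 and 1.70, and the major urinary protein gene Mup3 by 1.33 and 2.58. Fkbp5, a co-chaperone of the glucocorticoid receptor, fell by 1.54 and 3.04. The 1 month calls of 5 of these genes rested on single libraries. That of Saa4 was lost without 1 month knockout 1 (limma adjusted p = 0.136) and that of Fmo2 without 1 month control 2 (limma adjusted p = 0.0501). Hsd3b5 lost its call without 1 month control 1 or either 1 month knockout (limma adjusted p up to 0.132). Slco1a4 lost its call without 1 month control 2 or either 1 month knockout (limma adjusted p up to 0.180). Serpina1e lost its call without 1 month control 1, either 1 month knockout, GFP control 1 or GFP control 3 (limma adjusted p up to 0.276). The 1 month calls of Saa4, Hsd3b5, Serpina1e and Slco1a4 and the acute call of Fkbp5 were also lost after median-ratio rescaling. With no filter on level the 1 month calls of Saa4, Slco1a1, Hsd3b5, Serpina1e, Slco1a4, Fmo2 and Fkbp5 were lost (limma adjusted p from 0.0572 to 0.290), as was the acute call of Fkbp5 (limma adjusted p = 0.0799).

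**Figure D2:**
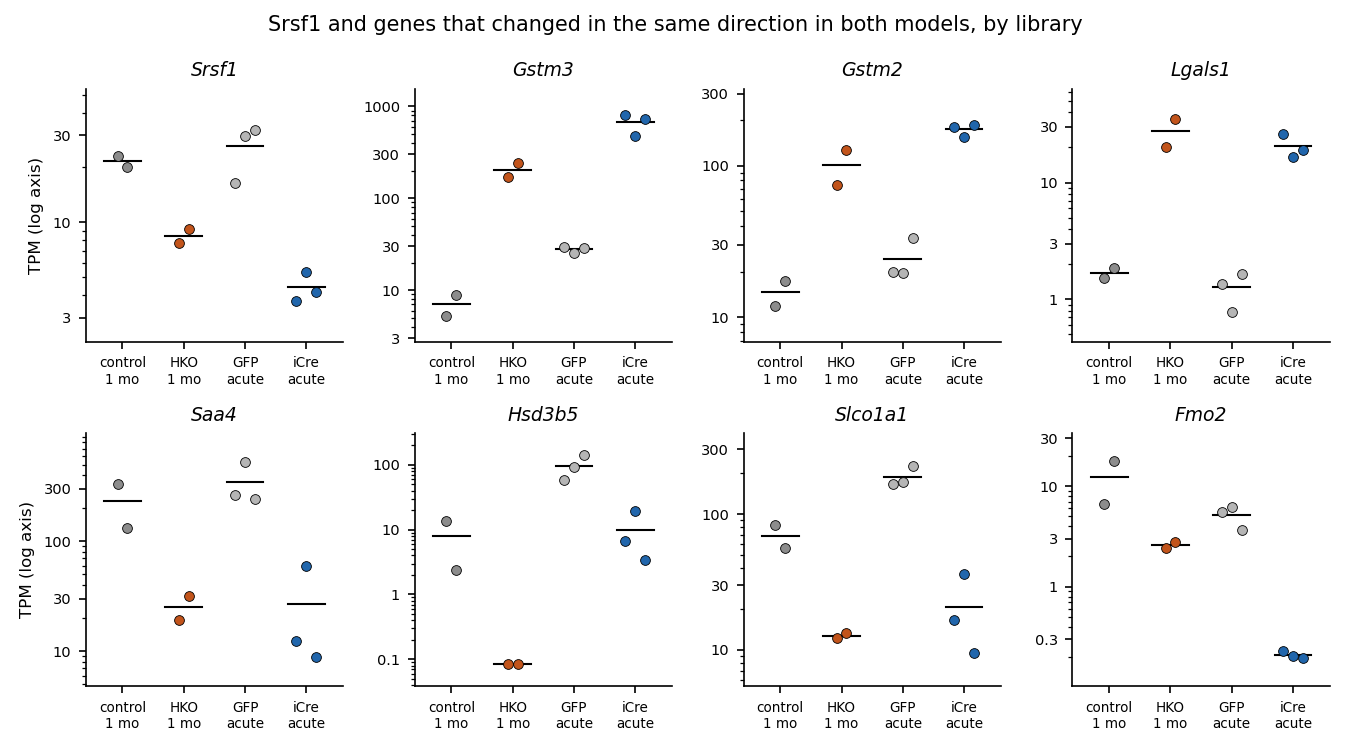
TPM of shared higher and shared lower genes in each of the 10 libraries, on a log axis, with a point per library and a bar at each group mean. Gstm3 rises from 25.5 to 29.8 TPM in the GFP controls to 481 to 802 TPM in the acute knockouts, and Slco1a1 falls to between 9.51 and 36.3 TPM in the knockouts of both models.

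The P10 libraries took no part in the contrast and were compared after median-ratio rescaling, where 12.3% of 10158 genes rose and 13.2% fell in the P10 knockout. On the deposited scale 35.7% rose and 5.27% fell. Of the 110 shared higher genes, 70 (63.6%) rose at P10. Of the 67 shared lower genes, 38 (56.7%) fell. Among genes whose difference passed and that rose at 1 month without a shared acute rise, 53 of 109 (48.6%) rose at P10. Of the 62 genes that rose acutely with a passing difference, 15 (24.2%) rose at P10, and of the 219 that fell acutely with a passing difference, 73 (33.3%) fell. P10 and 1 month both compare the floxed knockout with albumin-Cre controls, so they share whatever separates those lines. Ly6d went from a mean of 0.719 TPM in the P10 controls to 42.9 TPM in the P10 knockouts, and Gstm3 from 3.997 to 126 TPM.

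Mitotic genes were higher in the knockouts at 1 month and stayed low in the acute model. The list held 32 genes of mitosis, among them Ccnb2 (cyclin B2), Cdc20 (an activator of the anaphase-promoting complex), Ccna2 (cyclin A2) and Cdca3 (a trigger of mitotic entry). All 32 were higher in both 1 month knockouts than in both controls, against 14.7% of all tested genes, and their summed level went from 5.83 and 11.7 TPM to 94.2 and 112.5 TPM, a ratio of 11.8. In the acute model 15 of the 32 were higher in every knockout than in every control and 1 was lower, against 6.79% and 46.5% of all tested genes. Their sum went from 4.88, 4.72 and 7.04 TPM to 6.27, 7.84 and 9.37 TPM, a ratio of 1.41. Of the 32 genes, 9 passed the filter on mean level, which these low genes could do through the 1 month knockouts alone. With no filter on level, where 31618 genes were tested, all 32 rose at 1 month, against 3.1% of those tested, and the difference passed for 29 with the lower acute effect, against 1.79%.

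Ccnb2 (chr9:70407692-70421547, minus strand) was at 0.308 and 0.422 TPM in the 1 month controls and 8.94 and 8.10 TPM in the 1 month knockouts. Among the acute-model libraries it was at 0.116, 0.159 and 0.176 TPM in the GFP controls and 0.134, 0.268 and 0.350 TPM in the knockouts, so the acute groups overlapped. Ccnb2 rose by 2.84 at 1 month (limma adjusted p = 4.05e-08), and its difference was -2.36 (SE 0.27, limma adjusted p = 3.83e-06). Cdca3 had a difference of -2.15 (limma adjusted p = 2.76e-05), Cdc20 of -2.12 (limma adjusted p = 3.68e-05) and Ccna2 of -1.73 (limma adjusted p = 7.79e-05). With no filter the difference of Ccnb2 had a limma adjusted p of 4.25e-04, and those of the other 3 genes were between 0.00128 and 0.00421. Of 32 genes of DNA replication 21 were higher in both 1 month knockouts than in both controls and 1 was lower, against 14.7% and 17.3% of all tested genes. In the acute model 9 were higher in every knockout and 6 lower, against 6.79% and 46.5%. Their summed level was 53.9 and 51.6 TPM against 54.9 and 74.6 TPM at 1 month, a ratio of 1.23, and the acute ratio was 0.806. By the test 3 of 14 genes fell acutely and 1 rose at 1 month, against 29.4% and 2.86% of all tested genes. After median-ratio rescaling 1 fell and 4 rose acutely and 4 rose at 1 month, against 19.8%, 20.3% and 5.18%.

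Promoters of mitotic genes are known to carry CCAAT boxes, bound by NF-Y, and CHR elements, bound by the DREAM and MuvB complexes, and 3 of them are shown because their genes are low in all acute-model libraries and high in the 1 month knockouts. The windows are the 250 bases before the RefSeq start site in GRCm38.p6, at chr9:70421555-70421804 on the minus strand for Ccnb2, chr6:124829926-124830175 on the plus strand for Cdca3 and chr4:118437344-118437593 on the minus strand for Cdc20. Capitals mark CCAAT (or its reverse ATTGG) and TTTGAA (or its reverse TTCAAA).
Ccnb2: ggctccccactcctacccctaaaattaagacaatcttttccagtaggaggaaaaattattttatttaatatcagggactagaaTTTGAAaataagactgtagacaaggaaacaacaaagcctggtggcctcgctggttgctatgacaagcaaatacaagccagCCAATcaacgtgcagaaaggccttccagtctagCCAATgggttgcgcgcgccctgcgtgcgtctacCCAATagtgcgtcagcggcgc
Cdca3: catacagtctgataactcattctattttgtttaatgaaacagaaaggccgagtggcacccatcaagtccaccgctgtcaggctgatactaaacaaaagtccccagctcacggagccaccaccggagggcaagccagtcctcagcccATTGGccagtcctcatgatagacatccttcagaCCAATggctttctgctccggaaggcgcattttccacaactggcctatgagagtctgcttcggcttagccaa
Cdc20: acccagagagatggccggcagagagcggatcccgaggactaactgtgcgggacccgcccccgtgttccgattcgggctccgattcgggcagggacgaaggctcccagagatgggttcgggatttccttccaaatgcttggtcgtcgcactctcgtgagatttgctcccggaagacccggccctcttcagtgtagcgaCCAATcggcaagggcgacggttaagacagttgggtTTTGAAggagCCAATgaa
Ccnb2 held 3 CCAAT boxes and 1 CHR element, Cdca3 2 and 0, and Cdc20 2 and 1. Of the 32 mitotic genes 26 matched the RefSeq table, with 27 promoters. A CCAAT box on either strand was found in 21 of these (77.8%), against 33.8% of 32851 promoters, and a CHR element in 9 (33.3%), against 5252 of the 32851. Both were found in 8 (29.6%), against 5.55%. A match describes the letters in the window and does not show a bound site.

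A second set of genes that were low in all acute-model libraries rose at 1 month. Ly6d (chr15:74762056-74763620, minus strand), a GPI-anchored Ly6 family protein, was at 0.463 and 0.560 TPM in the 1 month controls and 64.0 and 69.6 TPM in the 1 month knockouts. All 6 acute-model libraries were at or below 0.178 TPM. Ly6d, H19, Spink1, Nupr1, Cyp3a41a and Cbr3 reached the filter on mean level through the 1 month knockouts alone, with a mean of at most 0.291 TPM over the other 8 libraries, so their being tested at all depended on the group where they were high. With no filter their differences passed as well (limma adjusted p up to 0.0343). For Ly6d the difference of -4.99 (SE 0.28, limma adjusted p = 6.53e-10) was the most negative of the named genes.

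H19, an imprinted noncoding RNA abundant in fetal liver and silenced after birth, went from 0.136 and 0.248 TPM to 16.5 and 57.95 TPM at 1 month, and was at or below 0.0552 TPM in the acute model, a difference of -4.40 (limma adjusted p = 2.14e-06). Over a list of 19 fetal and oncofetal liver genes, 16 were higher in both 1 month knockouts than in both controls, against 14.7% of all tested genes, and the sum went from 15.9 and 21.3 TPM to 213 and 308 TPM. The acute sum went from 11.6, 11.3 and 24.2 TPM to 19.99, 21.5 and 26.1 TPM, with 7 of 19 higher in every knockout, against 6.79% of all tested genes. In that list Spink1, a trypsin inhibitor, had a difference of -2.71 (limma adjusted p = 1.94e-06) and Lpl, lipoprotein lipase, of -2.46 (limma adjusted p = 5.54e-04). Nrep had a difference of -4.42 (limma adjusted p = 5.81e-06), which combines an acute fall of 3.02 with a 1 month change of 1.41 (limma adjusted p = 0.0503).

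Several injury-associated genes showed the same 1 month pattern. Spp1, which encodes osteopontin, was at 1.12 and 0.998 TPM in the 1 month controls, 32.5 and 17.9 TPM in the 1 month knockouts, 1.18, 0.623 and 1.95 TPM in the GFP controls and 0.541, 1.81 and 2.21 TPM in the acute knockouts. Its difference was -3.15 (limma adjusted p = 6.37e-05). Over 14 cholangiocyte and ductular genes, 11 were higher in both 1 month knockouts, against 14.7% of all tested genes, and the sum went from 5.58 and 5.32 TPM to 40.1 and 26.1 TPM, while the acute ratio of sums was 0.880. Spp1 carried most of that sum, with a mean of 25.2 TPM in the 1 month knockouts, where 11 of the 14 genes were under 1 TPM. Nupr1, a stress-induced nuclear protein, went from 0.0968 and 0.0957 TPM to 12.9 and 10.7 TPM at 1 month and stayed at or below 0.395 TPM in the acute model, a difference of -3.04 (limma adjusted p = 8.15e-07). Anxa2, an annexin, rose in both models, by 1.16 acutely and 3.12 at 1 month, and the smaller acute rise passed as a difference of -1.94 (limma adjusted p = 2.33e-04).

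Markers of other liver cells also differed between the groups. All 22 macrophage and Kupffer cell markers were higher in both 1 month knockouts than in both controls, against 14.7% of all tested genes, and their sum went from 29.0 and 37.7 TPM to 197 and 95.5 TPM. In the acute model 5 of 22 were higher in every knockout, against 6.79%, with sums of 12.4, 14.5 and 29.9 TPM against 43.4, 20.6 and 68.1 TPM. Of 12 tested markers 10 rose at 1 month and 1 acutely, against 2.86% and 5.28% of all tested genes. After median-ratio rescaling 3 rose in each comparison, against 5.18% at 1 month and 20.3% acutely. Low markers could pass the filter on mean level through the 1 month knockouts alone. Cd68 and Marco did so, with means of 0.818 and 0.566 TPM over the other 8 libraries. The difference passed for Cd68 alone (-1.13, limma adjusted p = 0.0253), and did not pass after median-ratio rescaling (limma adjusted p = 0.107) or with no filter (limma adjusted p = 0.147). These counts depend on single libraries: the 1 month count was 2 without 1 month knockout 1, 3 without GFP control 1, 5 without GFP control 3 and 6 without 1 month control 1. The acute count was 10 without either 1 month control, 5 without either 1 month knockout, 3 without GFP control 3, 2 without acute knockout 1 and 11 without acute knockout 2. Endothelial marker sums went from 18.1 and 14.1 TPM to 67.1 and 21.6 TPM at 1 month and from 8.31, 10.98 and 21.8 TPM to 16.1, 17.6 and 38.1 TPM acutely. Stellate cell and fibroblast sums went from 64.3 and 84.1 TPM to 76.5 and 52.7 TPM at 1 month and from 64.2, 69.7 and 109.4 TPM to 23.99, 22.1 and 37.4 TPM acutely, where 1 of the 13 markers was lower in every knockout. That marker, the chemokine gene Cxcl12, named after its values were seen, carried most of the sum, with means of 75.5 and 14.2 TPM. The sum of 25 extracellular matrix genes had a ratio of 0.814 at 1 month and 0.582 acutely. The part of other cells in the mitotic, fetal and injury results was not tested.

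**Figure D3:**
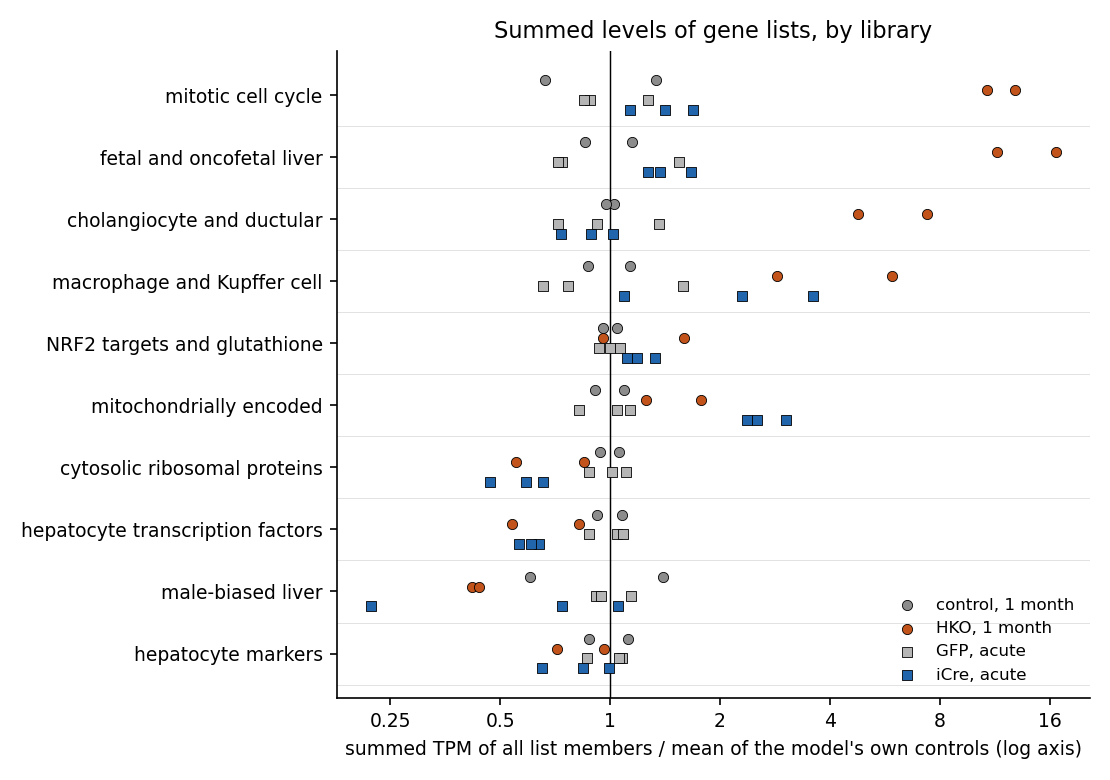
Summed TPM of all members of each gene list in each of the 10 libraries, divided by the mean of the control libraries of the same model, on a log axis with a point per library. The mitotic sums of the 1 month knockouts lie at 10.7 and 12.8 times their controls, those of the acute knockouts between 1.13 and 1.69 times.

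Genes that fell acutely with a passing difference included transcription factors of hepatocyte identity. Onecut1 (chr9:74861921-74891781, plus strand), which encodes HNF6, was at 26.7, 65.3 and 50.2 TPM in the GFP controls and 3.42, 5.82 and 1.79 TPM in the acute knockouts. At 1 month it moved the other way, from 0.983 and 1.68 TPM to 6.53 and 8.31 TPM. The groups were separate in both models, with changes of -3.02 (limma adjusted p = 8.07e-07) and 1.90 (limma adjusted p = 0.00608), and a difference of -4.91 (SE 0.50, limma adjusted p = 1.94e-06). The starting levels also differed, with each GFP control above each 1 month control.

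Foxa2, a forkhead pioneer factor, fell from 15.8, 15.9 and 11.6 TPM to 2.97, 2.58 and 3.72 TPM acutely, and was at 6.47 and 5.58 against 5.005 and 7.12 TPM at 1 month, where the groups overlapped. Its difference was -1.58 (limma adjusted p = 0.00224). Its relative Foxa1 went from 8.07, 5.64 and 6.05 TPM to 1.68, 1.14 and 1.52 TPM acutely and overlapped at 1 month, with a difference of -1.25 (limma adjusted p = 0.00545). Of 25 tested hepatocyte transcription factors, 11 fell and 1 rose acutely, against 29.4% and 5.28% of all tested genes. At 1 month 1 fell and 1 rose, against 1.28% and 2.86%. After median-ratio rescaling 7 fell and 3 rose acutely, against 19.8% and 20.3%. The list's median relative change was -0.13 acutely and -0.14 at 1 month. The difference passed for 5 members, 4 with the lower acute effect and 1 (Bcl6) with the higher, against 3.18% and 0.835%. After median-ratio rescaling it passed for 3 with the lower and 3 with the higher acute effect, against 5.35% and 5.56%.

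Cish and Socs2, feedback inhibitors of cytokine and growth hormone signalling, fell acutely. Cish (chr9:107296026-107302784, plus strand), induced by STAT5, was at 10.9, 11.6 and 9.30 TPM in the GFP controls and 0.597, 0.477 and 0.413 TPM in the acute knockouts, and went from 0.468 and 0.950 TPM to 2.74 and 2.96 TPM at 1 month. It fell by 2.60 acutely (limma adjusted p = 6.52e-09) and rose by 1.23 at 1 month (limma adjusted p = 0.00371), a difference of -3.81 (SE 0.30, limma adjusted p = 8.55e-08). Socs2, of the same family, was at 9.05, 24.1 and 13.4 TPM in the GFP controls and 0.245, 0.603 and 0.465 TPM in the acute knockouts. At 1 month its groups overlapped, at 2.02 and 14.3 against 13.8 and 11.3 TPM, and its difference was -4.08 (SE 0.64, limma adjusted p = 2.81e-04), which did not pass with no filter on level (limma adjusted p = 0.0594). Prlr, the prolactin receptor, fell by 3.19 acutely and changed by -0.84 at 1 month (limma adjusted p = 0.427), a difference of -2.34 (limma adjusted p = 0.00960) that did not pass after median-ratio rescaling (limma adjusted p = 0.0646).

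Sex-biased liver genes respond to the pattern of growth hormone release, and some of them differed between the models. Cyp4a12a, a male-biased fatty acid hydroxylase, was at 88.0, 84.2 and 104.8 TPM in the GFP controls and 18.1, 34.4 and 15.4 TPM in the acute knockouts, and at 26.5 and 7.78 against 45.9 and 39.6 TPM at 1 month. Its changes were -1.71 and 1.53 (limma adjusted p = 2.33e-04 and 0.0499), with a difference of -3.22 (SE 0.54, limma adjusted p = 4.43e-04). Its paralog Cyp4a12b had a difference of -2.97 (limma adjusted p = 0.00277) that missed the threshold after median-ratio rescaling (limma adjusted p = 0.0593), with no filter (limma adjusted p = 0.109) and with the authors' deposited tables (adjusted p = 0.0754). Of 19 tested male-biased genes 11 fell and 2 rose acutely, against 29.4% and 5.28% of all tested genes. At 1 month 4 fell and 2 rose, against 1.28% and 2.86%. The difference passed for 5, all with the lower acute effect, against 3.18%, and for 3 after median-ratio rescaling. Those 5 became 9 without acute knockout 2, 2 without 1 month knockout 2 and 3 without 1 month control 2.

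Of 13 tested female-biased genes 6 fell acutely, 3 rose and 1 fell at 1 month, and the difference passed for 4 with the lower acute effect, against 29.4%, 2.86%, 1.28% and 3.18% of all tested genes. The count of 4 was 2 without 1 month knockout 2 and 6 without 1 month control 2, GFP control 2, acute knockout 2 or acute knockout 3, and the count of 3 was 5 without 1 month control 2. The sum over all 24 members had a ratio of 0.307 acutely and 0.863 at 1 month, where 6 members were higher and 5 lower in both knockouts. Cyp3a41a, of this list, rose at 1 month in the knockouts, from 0.0518 and 0.00491 TPM to 6.03 and 26.6 TPM, and was at or below 0.0575 TPM in the acute model, a difference of -3.43 (limma adjusted p = 8.33e-05). Sult2a2, a sulfotransferase of the same list, went from 0.0139 and 0.164 TPM to 3.51 and 16.6 TPM at 1 month and is listed at 0 in all 6 acute-model libraries. Cyp3a41a and Sult2a2 are among both the 4 and the 3 called genes. They reached the filter on mean level through the 1 month knockouts alone, with means of 0.0338 and 0.0223 TPM over the other 8 libraries. With no filter the difference of Cyp3a41a passed (limma adjusted p = 0.0343) and that of Sult2a2 did not (limma adjusted p = 0.0746). Both transcripts were seen in 1 month knockouts whose libraries carry Y-linked transcripts and almost no Xist. At P10 Cyp3a41a was at 99.0 and 127.9 TPM in the controls and at 55.6 and 39.8 TPM in the knockouts.

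Slc25a30, a mitochondrial inner membrane carrier, also moved in opposite directions. It was at 10.7, 13.1 and 13.1 TPM in the GFP controls and 2.22, 4.51 and 2.71 TPM in the acute knockouts, and went from 2.82 and 5.43 TPM to 14.01 and 24.3 TPM at 1 month, a difference of -3.37 (SE 0.41, limma adjusted p = 1.49e-05). Fabp5, a fatty acid binding protein, had a difference of -3.33 (limma adjusted p = 0.00472), lost without 1 month knockout 2 (limma adjusted p = 0.0836) and with no filter (limma adjusted p = 0.1496). In all, 30 genes passed in opposite directions with a passing difference: 5 higher acutely (0.0491% of those tested) and 25 lower (0.246%). They were 17 without 1 month knockout 2, and 5 and 13 of them passed on both scales.

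**Figure D4:**
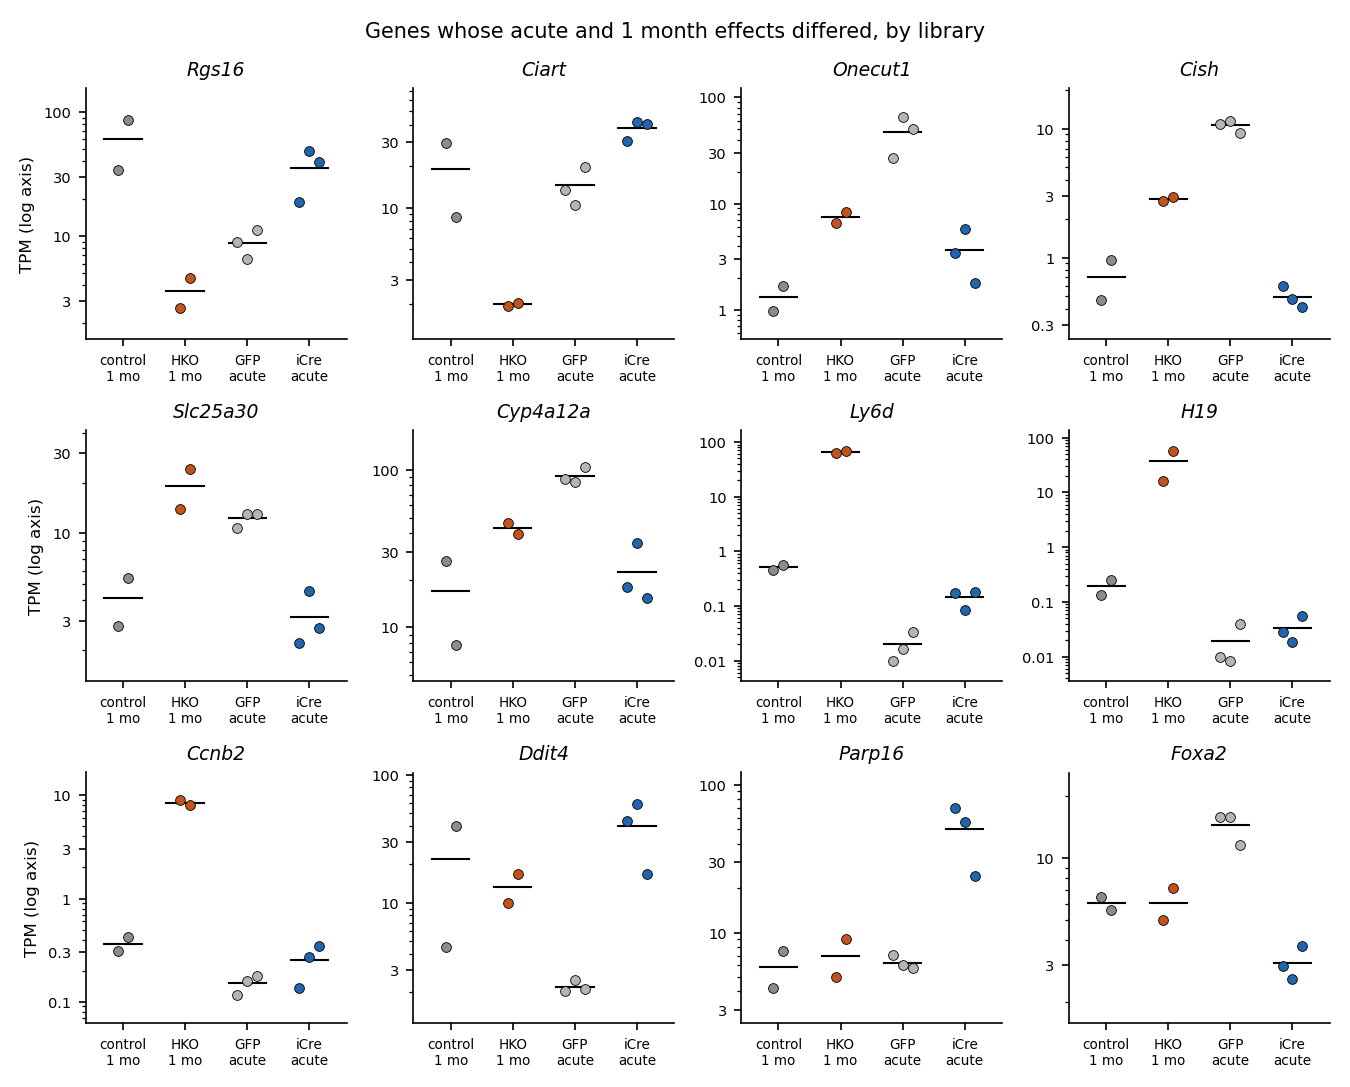
TPM of genes with a passing difference between the models in each of the 10 libraries, on a log axis, with a point per library and a bar at each group mean. Onecut1 falls to between 1.79 and 5.82 TPM in the acute knockouts and rises to 6.53 and 8.31 TPM in the 1 month knockouts, and Rgs16 does the reverse.

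Rgs16 (chr1:153740349-153745468, plus strand), a regulator of G protein signalling with a daily rhythm in liver, had the most positive difference of the named genes. It was at 33.7 and 86.4 TPM in the 1 month controls and 2.64 and 4.57 TPM in the 1 month knockouts, and at 8.87, 6.51 and 11.2 TPM in the GFP controls and 18.8, 48.2 and 39.6 TPM in the acute knockouts. It rose by 2.17 acutely (limma adjusted p = 7.97e-04) and fell by 3.57 at 1 month (limma adjusted p = 1.13e-05). The difference was 5.76 (SE 0.55, limma adjusted p = 3.74e-06), and it passed without each library in turn.

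Ciart (chr3:95878503-95882251, minus strand), a repressor within the circadian clock, moved likewise. It was at 29.3 and 8.60 TPM in the 1 month controls and 1.94 and 2.02 TPM in the 1 month knockouts, and at 13.5, 10.4 and 19.7 TPM in the GFP controls and 30.5, 41.9 and 40.5 TPM in the acute knockouts. It rose by 1.70 and fell by 2.47, a difference of 4.19 (SE 0.51, limma adjusted p = 8.86e-05). Dbp, a clock output factor, was at 28.8 and 6.29 TPM against 2.52 and 1.14 TPM at 1 month and at 19.8, 7.15 and 44.4 TPM against 31.5, 23.6 and 49.3 TPM acutely, where the groups overlapped. Its difference of 3.55 (limma adjusted p = 0.0241) was lost after median-ratio rescaling (limma adjusted p = 0.0707), with no filter (limma adjusted p = 0.253) and without 1 month knockout 2 or GFP control 1 (limma adjusted p up to 0.234). Of 17 tested core clock genes 4 fell at 1 month, against 1.28% of all tested genes, a count of 2 without 1 month control 1, either 1 month knockout or GFP control 1, and 6 without acute knockout 3. Acutely 5 fell and 1 rose, close to the 29.4% and 5.28% of all tested genes, and after median-ratio rescaling 0 fell and 2 rose. No source used here gives the time of day of sampling, and its part in these values was not tested.

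The promoter of Ciart is shown because clock factors bind E-boxes (CACGTG, its own reverse complement). Its window is the 250 bases before the RefSeq start site at chr3:95882229-95882478 on the minus strand of GRCm38.p6, and capitals mark CACGTG.
Ciart: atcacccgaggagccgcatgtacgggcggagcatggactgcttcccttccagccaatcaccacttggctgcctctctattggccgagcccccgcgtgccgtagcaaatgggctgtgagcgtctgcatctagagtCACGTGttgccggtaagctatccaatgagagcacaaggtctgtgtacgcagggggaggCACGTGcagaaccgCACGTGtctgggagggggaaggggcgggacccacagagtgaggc
It held 3 E-boxes. Of the 19 core clock genes 16 matched, with 21 promoters, and 6 of these (28.6%) held an E-box, against 6.02% of all promoters.

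Several genes rose acutely without a 1 month change that passed. Ddit4, an inhibitor of mTORC1 induced by stress and glucocorticoids, was at 2.05, 2.51 and 2.11 TPM in the GFP controls and 44.0, 58.9 and 16.9 TPM in the acute knockouts. At 1 month it overlapped, at 4.52 and 39.8 against 10.0 and 16.8 TPM, and its difference of 3.93 (limma adjusted p = 0.0115) was lost without either 1 month knockout, GFP control 1 or GFP control 3 (limma adjusted p up to 0.0757). Parp16 (chr9:65195353-65239224, plus strand), an ADP-ribosyltransferase of the endoplasmic reticulum, went from 7.03, 6.04 and 5.73 TPM to 70.0, 56.1 and 24.1 TPM acutely. It was at 4.22 and 7.53 against 4.998 and 8.995 TPM at 1 month, with a difference of 2.80 (SE 0.50, limma adjusted p = 0.00669). Cyp4a14, a fatty acid hydroxylase induced through PPARA, went from 20.1, 40.9 and 14.4 TPM to 91.8, 149.6 and 138 TPM acutely and was at 1049 and 2494 against 1002 and 1414 TPM at 1 month. Its difference was 3.16 (limma adjusted p = 0.00524), with 1 month levels above all acute-model levels in both groups.

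Cfd, which encodes complement factor D, was at 4.95, 8.85 and 3.39 TPM in the acute knockouts and at or below 0.0457 TPM in the other 7 libraries, a difference of 2.94 (limma adjusted p = 1.47e-04) that did not pass with the authors' deposited tables (adjusted p = 0.252). Saa3, an inducible serum amyloid A, had a difference of 2.90 (limma adjusted p = 0.00270) and the repressor Bcl6 of 3.20 (limma adjusted p = 0.00865), the latter lost without 1 month knockout 1 (limma adjusted p = 0.0602). Mup8 had a difference of 3.50 (limma adjusted p = 0.0219), lost after median-ratio rescaling (limma adjusted p = 0.0653) and without either 1 month knockout, GFP control 1 or GFP control 3 (limma adjusted p up to 0.194). The B and plasma cell list summed to 0.333, 0.402 and 1.31 TPM in the GFP controls and 9.87, 3.58 and 4.05 TPM in the acute knockouts. Its immunoglobulin heavy chain gene Ighm had a difference of 2.04 (limma adjusted p = 0.0370). Ighm was the 1 tested member, and no member averaged above 0.448 TPM in the GFP controls or either 1 month group. Cfd and Ighm thus reached the filter on mean level through the acute knockouts alone. Their being tested at all depended on the group where they were high. With no filter the difference of Cfd passed as well. With no filter on level the differences of Ddit4, Parp16, Cyp4a14, Saa3, Bcl6 and Mup8 did not pass (limma adjusted p from 0.0776 to 0.245). The part of other cells in Cfd and Saa3 was not tested.

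Several lists of secreted and metabolic hepatocyte genes had lower mean sums in the knockouts of both models, and other metabolic lists did not. The ratios of sums were 1.02 acutely and 1.06 at 1 month for lipogenesis and 0.884 and 1.37 for cholesterol synthesis and uptake. They were 0.614 and 1.16 for lipid droplets and fatty acid uptake and 0.879 and 1.002 for fatty acid oxidation. Of 30 acute phase genes 15 were lower in every acute knockout than in every GFP control, against 46.5% of all tested genes, and 24 were lower in both 1 month knockouts, against 17.3%. The ratios of their sums were 0.604 acutely and 0.564 at 1 month. By the test 17 fell and 2 rose acutely, against 29.4% and 5.28% of all tested genes, and 4 fell at 1 month, against 1.28%. Of 22 major urinary protein genes 8 were lower in every acute knockout and 20 in both 1 month knockouts, against 46.5% and 17.3% of all tested genes. The ratios of their sums were 0.556 and 0.329. By the test 8 of 19 major urinary protein genes fell and 2 rose acutely and 6 fell at 1 month, against 29.4%, 5.28% and 1.28%. After median-ratio rescaling 13 acute phase and 5 major urinary protein genes fell acutely, against 19.8% of all tested genes, and 5 and 3 rose, against 20.3%. At 1 month 1 acute phase and 3 major urinary protein genes fell on that scale, against 3.25%. Fgl1, a secreted fibrinogen-like protein, went from 194, 358 and 566 TPM to 6.78, 46.2 and 14.2 TPM acutely and from 338 and 643 to 179 and 178 TPM at 1 month, with changes of -3.91 (limma adjusted p = 4.27e-06) and -1.34 (limma adjusted p = 0.283). Its difference of -2.56 (limma adjusted p = 0.0325) did not pass after median-ratio rescaling (limma adjusted p = 0.125). The 1 month count of 4 was 0 without 1 month knockout 1, 2 without 1 month knockout 2, GFP control 1 or GFP control 3, 11 without GFP control 2, 9 without acute knockout 1 and 13 without acute knockout 2 or 3.

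Of 34 genes for cytochrome P450s and other drug-metabolizing enzymes 20 fell and 2 rose acutely and 4 fell and 1 rose at 1 month, against 29.4%, 5.28%, 1.28% and 2.86% of all tested genes in that order, with a median relative change of -0.45 acutely and -0.44 at 1 month. The counts thus differ while the medians lie close together. Ugt2b1, a glucuronosyltransferase, went from 397, 436 and 479 TPM to 16.6, 70.7 and 15.2 TPM acutely and from 152 and 155 TPM to 81.8 and 99.9 TPM at 1 month. Its difference was -2.92 (limma adjusted p = 0.00370). Ces3a, a carboxylesterase, had a difference of -1.59 (limma adjusted p = 0.00309). Of 36 urea cycle and amino acid breakdown genes 17 fell and 1 rose acutely and 3 fell at 1 month, against 29.4%, 5.28% and 1.28% of all tested genes. The ratios of their sums were 0.684 acutely and 0.554 at 1 month, and 0 passed in the difference on the deposited scale against 8 with the higher acute effect after median-ratio rescaling.

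The 13 mitochondrially encoded mRNAs made up a larger share of the library in the acute knockouts. Their sum was 115700, 160000 and 146700 TPM in the GFP controls and 356500, 333900 and 427500 TPM in the acute knockouts, a ratio of 2.65. At 1 month it was 308400 and 258100 against 502800 and 355100 TPM, a ratio of 1.51. Acutely 12 of 13 rose and at 1 month 0 of 13, and 0 passed in the difference. The shares of all tested genes were 5.28%, 2.86% and 4.02% in that order. After median-ratio rescaling the counts were 13, 0 and 1, the last being mt-Nd5, against 20.3%, 5.18% and 10.9%. The 1 month controls were already above every GFP control.

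Ribosomal protein genes fell acutely in 55 of 77 cases, against 29.4% of all tested genes, and 3 fell at 1 month, against 1.28%. Their median relative change was -0.42 acutely and -0.49 at 1 month, and 0 passed in the difference, against 4.02%. After median-ratio rescaling 39 fell acutely and 26 at 1 month, against 19.8% and 3.25% of all tested genes. On that scale 3 passed in the difference with the higher acute effect, against 5.56%. The acute count was 31 without acute knockout 3 and 35 without GFP control 2 or GFP control 3. The ribosomal protein sum was lower in the knockouts of both models: 12850 and 14510 against 7561 and 11590 TPM at 1 month, and 11140, 12910 and 14110 against 8355, 7495 and 5955 TPM acutely.

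Transcript usage, the share of each transcript in its gene's TPM, is a readout that gene sums do not use. It was tested in 3518 genes with 2 or more transcripts that averaged 1 TPM or more and 5% or more of their gene, and a call needed a change of at least 10 percentage points. Usage changed in 1077 genes acutely (30.6%) and 10 at 1 month (0.284%), and the difference passed for 229 (6.51%). The difference count was 47 without 1 month control 1, 354 without 1 month knockout 1, 90 without 1 month knockout 2, 122 without GFP control 2, 150 without acute knockout 1 and 149 without acute knockout 2. Of the 10 genes called at 1 month 6 were shared with the acute comparison, set against the 30.6% of all tested genes called acutely. These 6 are 0.171% of those tested. The difference passed for 6 of the 10, against 6.51%. The sixth shared gene is a pseudogene or predicted gene and is not described. The 1 month count was 28 and the shared count 18 without 1 month knockout 2, and the shared count was 1 without 1 month control 2.

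The shared genes included gains of retained-intron, decay-annotated and other noncoding transcripts. Xpot encodes the export receptor for tRNA. The retained-intron transcript Xpot-204 took 5.11% and 1.40% of the gene in the 1 month controls and 17.6% and 16.6% in the knockouts, and 7.66%, 3.60% and 3.26% against 36.8%, 30.2% and 32.3% in the acute model. Tprkb, a subunit of the tRNA-modifying KEOPS complex, shifted to its coding transcript Tprkb-202, from 6.38% and 5.83% to 24.7% and 26.8% at 1 month and from 3.81%, 5.02% and 3.92% to 33.8%, 31.7% and 33.1% acutely. The groups did not overlap for either transcript in either model.

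Snd1 encodes a nuclease of the staphylococcal nuclease domain family. Its transcript Snd1-202 was listed at 0% in all control libraries of both models, at 31.5% and 28.3% in the 1 month knockouts and at 18.3%, 6.07% and 20.7% in the acute knockouts. Snd1-202 is 110 bases long, against 3482 for the coding Snd1-201. TPM are corrected for length, so a share of this size can rest on few reads. Sema4g-202, annotated to nonsense-mediated decay, rose from 21.2% and 19.99% to 34.0% and 34.6% at 1 month and from 22.7%, 19.3% and 24.3% to 44.9%, 41.8% and 42.8% acutely. Dazap1, an RNA-binding protein, gained the retained-intron transcript Dazap1-206, at 9.32% and 2.21% against 16.9% and 12.3% at 1 month and 1.99%, 3.63% and 1.98% against 23.4%, 23.3% and 25.5% acutely. Usage also differed between the models in Xpot, Sema4g and Dazap1 (limma diffSplice adjusted p of the difference = 0.00515, 0.0246 and 0.0214). For Snd1 and Tprkb the difference did not pass (limma diffSplice adjusted p = 0.731 and 0.109). In the P10 libraries the leading transcripts of these 5 genes all moved in the same direction, 3 of them by at least 10 points.

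Beyond the few shared calls, the 1 month shares leaned the way of the acute change. In the 1077 acutely called genes the leading transcript had the same sign at 1 month in 714 (66.3%), against 53.1% of the genes not called. The median 1 month change toward the acute direction was 2.52 points, against a median acute change of 19.5 points, and 0.32 points in the genes not called. At P10 the same sign was seen in 81.8% and 68.8%. Among the leading transcripts of the acute calls, retained-intron transcripts rose in 77 and fell in 27 genes, and coding transcripts rose in 278 and fell in 552. Transcripts annotated to nonsense-mediated decay rose in 21 and fell in 26, so this class did not lean toward a rise. The same split over all tested transcripts was not counted.

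Xpot, Xdh and Furin differed in usage between the models and also started from different control shares. Xpot-203 fell from 74.2%, 75.6% and 74.3% to 22.9%, 23.0% and 21.5% acutely and was at 52.0% and 52.0% against 45.5% and 52.2% at 1 month (limma diffSplice adjusted p of the difference = 0.00515). Xdh encodes xanthine dehydrogenase. Its transcript Xdh-201 fell from 79.4%, 78.7% and 80.0% to 44.7%, 35.6% and 36.8% acutely, while at 1 month it overlapped, at 27.5% and 54.0% against 31.6% and 55.3% (adjusted p of the difference = 0.00264). Furin, a proprotein convertase, moved in opposite directions: Furin-203 went from 41.9%, 46.0% and 45.8% to 16.1%, 14.2% and 27.9% acutely and from 27.8% and 28.9% to 48.9% and 50.6% at 1 month (adjusted p of the difference = 8.4e-04), where the 1 month change did not pass (adjusted p = 0.591). Hgs, Ppp2r2d and Cntrl completed the 6 genes with the largest differences of share, of 55.0, 54.0 and 44.8 points. Of the 229 genes with a difference in usage 16 also had a difference in total level.

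**Figure D5:**
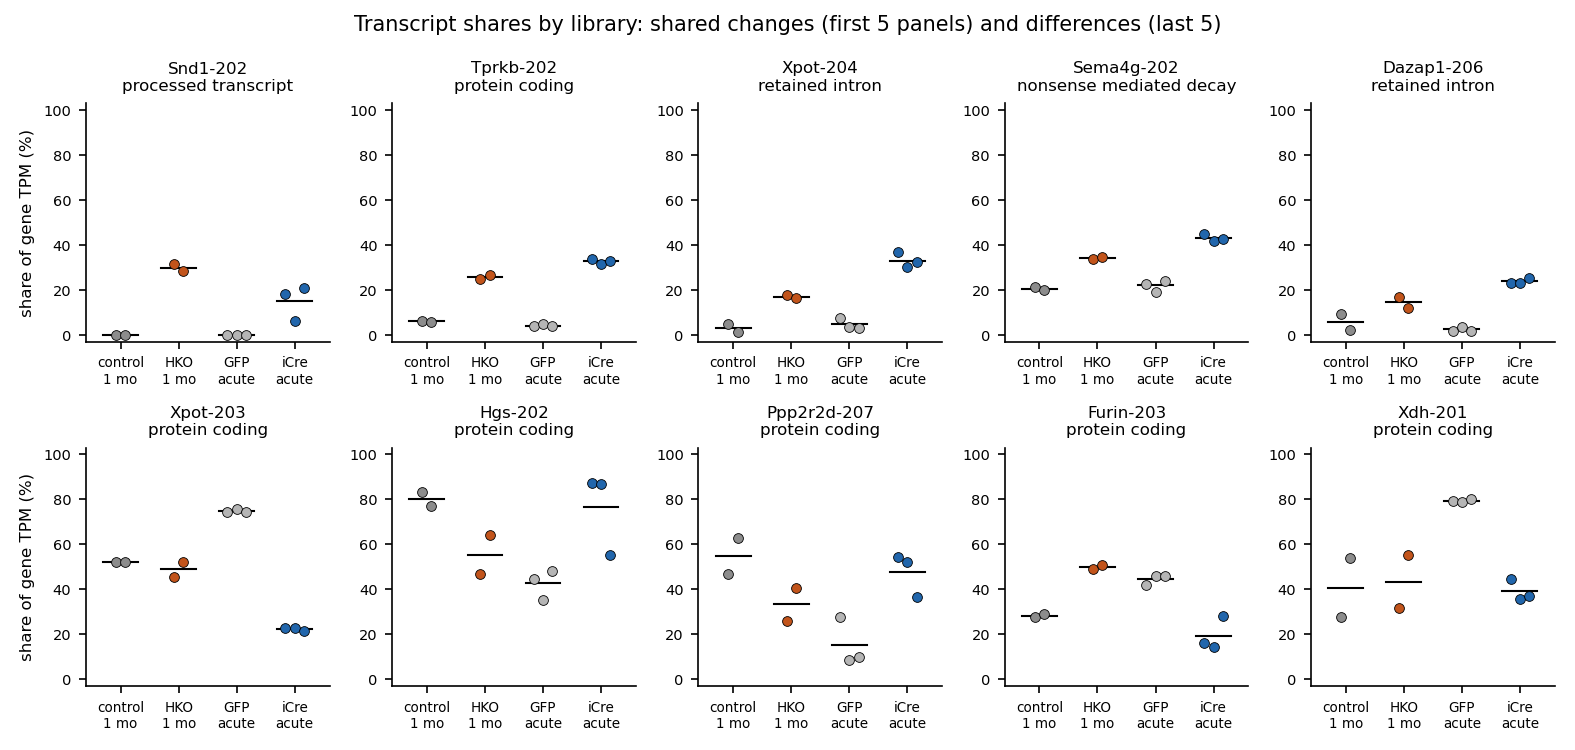
Share of the gene's TPM, in percent, taken by single transcripts in each of the 10 libraries, with a point per library and a bar at each group mean. Xpot-204 lies between 30.2% and 36.8% in the acute knockouts and at 16.6% and 17.6% in the 1 month knockouts, above every control.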

How the data were processed

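RNA was measured in purified mouse hepatocytes from polyA-selected stranded libraries, per the labels' protocols. The authors deposited transcript TPM for 14 libraries, and the submitters' processing notes name kallisto 0.46.0, bcl2fastq 2.17.1.14, DESeq2 and the build GRCm38 (mm10). Per the file headers, the authors' 3 deposited gene tables hold a mean normalized count (a signal averaged over libraries), log2 fold changes, a test score and p-values. No source used here says how gene counts were made. Each library of the TPM table summed to between 999999.6 and 1000000.2 over 137767 transcripts.

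Gene TPM were summed over transcripts, and log2(TPM + 1) was fitted with limma 3.58.1 in R 4.3.3 (4 group means, 10 libraries, 6 residual degrees of freedom, eBayes with trend, two-sided tests, Benjamini-Hochberg adjustment over the 10177 genes averaging 1 TPM or more). The P10 comparison was its own fit of 4 libraries. Transcript usage came from limma's diffSplice (F test per gene). TPM keep no depth, so no count model was fitted, and the number of libraries limits the precision. Coordinates are from GENCODE M21, where 53229 of 54446 gene identifiers matched. The replicate number does not pair the samples by the labels.

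The named genes are Srsf1, the 10 most positive and 10 most negative passing differences with a group mean of at least 5 TPM, the 8 shared higher, 8 shared lower and 8 opposite genes with the largest changes, from each list at most 4 members, by the smallest p of the difference, plus those called against their list, and 6 genes each for shared and differing transcript usage. Pseudogenes and predicted genes were not named by this rule. The members and lists were chosen with earlier results of these data known. Alternatives covered scaling, pseudocount, filter, the libraries fitted, the variance model, the authors' tables, a replicate block and each library left out. The test was checked on simulated data.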

Additional observations from a re-analysis of the deposited data

Results flagged for a closer look

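The 30 genes that changed in opposite directions in the acute and 1 month models, each past the threshold in both effects and in the test of the difference itself, are listed here by their 8 largest members because their effects differ in sign. Rgs16 had a relative log2 difference of 5.76 and Ciart of 4.19, both higher acutely. Onecut1 had a difference of -4.91, Cish of -3.81, Slc25a30 of -3.37, Cyp4a12a of -3.22, AA465934 of -2.99 and Cyp4a12b of -2.97, all lower acutely. AA465934 was at 10.9, 12.8 and 14.3 TPM in the GFP controls and 6.89, 8.25 and 5.25 TPM in the acute knockouts. It was at 7.04 and 9.17 TPM in the 1 month knockouts and at 0.721 and 0.494 TPM in the 1 month albumin-Cre controls. Every floxed library thus lay above both albumin-Cre controls. AA465934 is among 6 of the 30 opposite genes that were higher in all floxed groups, by the rule given under the other observations.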

How the results depend on the processing

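Directions held for all 56 named results under each alternative that gave a value (0 reversed; Cfd, Cish, Cyp3a41a and Fmo2 lie below the minimum mean of 5 TPM), 36 of them kept their side of the threshold in every setting other than a left-out library, and 45 kept it with each library left out. The counts moved more, and the cause was not tested. The main counts were 421 genes at 1 month, 3525 acutely, 85 with a higher and 324 with a lower acute effect, 30 opposite, 110 shared higher and 67 shared lower. In that order without the acute count, median-ratio rescaling gave 858, 566, 544, 72, 290 and 152, quantile normalization 971, 580, 636, 90, 255 and 240, and the tables deposited by the authors gave counts of 1210, 537, 539, 77, 265 and 343. With no filter the 1 month count was 1097, the lower acute effects 566, the opposite genes 14 and the shared lower genes 26. A minimum mean of 5 TPM gave 262 at 1 month, 2234 acutely and 61 shared higher. Removing mitochondrially encoded genes gave 2201 acutely, 246 shared higher and 26 shared lower. Fitting all 14 libraries gave 515 lower acute effects. Other pseudocounts and the fit without the trend stayed within 1.5 times. Usage calls fell from 1077 acutely, 10 at 1 month and 6 shared to 510, 5 and 2 at a threshold of 20 points, and to 276, 2 and 0 for transcripts of at least 5 TPM, where the difference count was 80. Leaving out each library in turn gave 53 to 169 higher and 110 to 635 lower acute effects, 2132 to 4164 acute genes, 287 to 571 at 1 month, 74 to 156 shared higher, 19 to 120 shared lower and 17 to 32 opposite genes. For usage it gave 47 to 354 differences, 792 to 1211 acute, 7 to 28 at 1 month and 1 to 18 shared.

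Same-numbered libraries had deviations that correlated at 0.291 at 1 month and at -0.0162, 0.275 and 0.224 in the acute model, where not every knockout correlated best with its own number, so the numbers were not taken to pair the samples. With the replicate number as a block the counts were 819 at 1 month, 249 higher and 817 lower acute effects, 89 opposite, 215 shared higher and 181 shared lower genes, and for usage 389 differences, 24 at 1 month and 12 shared. Depth is unknown for all libraries, so its part in low genes cannot be judged.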

Other observations

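Some transcripts were higher in all floxed groups, knockout or not. By a rule chosen after seeing the data (at least 1 TPM in each of the 4 floxed groups of the series and more than 4 times both albumin-Cre control groups), 18 genes on 11 chromosomes were higher in floxed samples, and 0 genes met the reverse rule. Of the 18, 4 are protein coding and 1 lies on the chromosome of Srsf1. They hold 17 of the 1 month calls (5.84% of the genes that rose there) and 14 of the differences (4.32% of those with the lower acute effect). Of the 18, 6 are among the 30 opposite genes and 4 among the 110 shared higher genes. Rps13-ps1, a processed pseudogene of a ribosomal protein gene, was at 1.76 and 0 TPM in the 1 month controls, 59.0 and 86.8 TPM in the 1 month knockouts, 161, 188 and 199 TPM in the GFP controls and 116, 105 and 75.2 TPM in the acute knockouts. Its parent Rps13 ran the other way, at 131 and 151, 30.3 and 39.3, 6.03, 6.12 and 9.09, and 3.70, 2.91 and 3.46 TPM in the same order, and reads cannot be split with certainty between the near-identical copies. Ces2c, a carboxylesterase, was at 1.86 and 1.73 TPM in the 1 month controls, 18.9 and 34.9 TPM in the 1 month knockouts, 27.5, 17.9 and 16.3 TPM in the GFP controls and 68.3, 63.7 and 60.0 TPM in the acute knockouts, so it was higher in the floxed line and higher again in the acute knockout.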
